A study of Mus musculus with 3 samples.

Results

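Interferon-stimulated genes were examined in sorted cells of the mouse leptomeninges, the thin inner membranes of the brain. The set held 39 genes, 4 interferon receptor chains and 35 interferon-induced effectors and regulators, taken by gene symbol from the 46983 genes of the count table. Their RNA was measured by bulk sequencing in 3 libraries. All belong to 1 group, cells sorted by fluorescence after the pia-enriched tissue of vehicle-treated mice had been dissected and dissociated. No other treatment was part of these data, so the libraries were compared only with each other. The agent that the vehicle stood for, the strain, the sex, the age and the sort gate are not stated in the labels. Nor do the labels say that each library came from separate mice, so the spread between these samples may be technical. Each p-value sets the spread of a gene against that typical of genes of similar level. A high p-value therefore does not show that a gene was even between libraries.

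Interferons are secreted proteins, and those of type I are released by cells that sense viral nucleic acid. Type I interferons bind the IFNAR1 and IFNAR2 chains, the kinases JAK1 and TYK2 are activated, and STAT2 and IRF9 then take part in a complex that binds the interferon-stimulated response element in DNA. Interferon gamma binds IFNGR1 and IFNGR2 and acts through the gamma-activated sequence. Many induced genes are also transcribed at a low level without infection, through tonic interferon signalling. Levels of different genes are given below in TPM, counts per kilobase of exon scaled to the same total in each library. The same gene is compared between libraries in CPM, counts relative to a library size scaled by the TMM method, and differences are of log2(CPM + 1), a scale that understates the change of low genes.

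Transcripts of the induced genes were present in all 3 libraries while those of the interferons were nearly missing. Of all gene counts, the 39 genes made up 0.493% ± 0.111 (SD, n = 3), and 33 of them had a mean of at least 10 TPM. The median level of the induced genes was 5.92 ± 0.44 (SD, n = 3) as log2(CPM + 1), and that of the 14409 genes that passed the filter on low counts was 4.19 ± 0.12. Induced genes were in most cases lower in library 3 than in library 2, and the receptors were not. Between libraries only Samd9l passed the test for variable genes.

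Libraries held 21002860 to 28704952 gene counts, and a count of 0 allows up to 3 counts, or 0.101 to 0.152 CPM; such limits cover counting error only. Fibroblast markers were high, with 6 genes summing to 23467, 29100 and 25292 CPM in libraries 1, 2 and 3, Col1a2, Col1a1 and Dcn leading. The 12 macrophage and microglia markers, among them Lyz2, C1qb and C1qc, summed to 17.6, 290.1 and 807 CPM, lowest in library 1 for 12 of 12, and 7 of the 8 tested were called variable. The 4 B cell markers summed to 2.07, 53.7 and 61.8 CPM and the 4 choroid plexus markers to 40.1, 1682 and 2643 CPM. The 7 T and NK cell markers reached at most 2.78 CPM in sum, with Ncr1 at 0 in all libraries. The 5 markers of plasmacytoid dendritic cells, the main type I interferon producers, summed to 6.01, 13.1 and 18.7 CPM. In library 1 Pacsin1 alone held 5.51 CPM of that sum, and Siglech was at 0. Spib led in libraries 2 and 3, at 9.01 and 6.44 CPM. Ccr9 and Klk1 reached at most 1.31 and 0.077 CPM. In bulk RNA, fewer cells of a type and less RNA per cell cannot be told apart.

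The promoters of the most abundant induced genes are shown first, for the letters of the response element found in them. Promoter windows came from RefSeq on GRCm38.p6, from 250 bases before to 50 bases after the gene start, and were found for 32 of the 39 genes. Mx1, Mx2, Oas2, Parp9, Parp14, Usp18 and Zbp1 had none in the table. The core of the response element was searched on both strands as GAAA, 2 bases of any kind and GAAA, with no mismatch. When it lies on the other strand, the gene strand reads TTTC, 2 bases and TTTC. It stood in the window of 14 of the 28 induced genes with a promoter and of 0 of the 4 receptors. It was held by 3.44% of all 32851 promoters of the RefSeq table. Counted per gene, as the set was, the share was 3.99% of 27025 genes. Below are the 250 bases before the start for the 5 most abundant induced genes with a match there, 5′ to 3′ on the strand of the gene, with matches in capitals.
Ifitm2, chr7:140955962-140956211, minus strand: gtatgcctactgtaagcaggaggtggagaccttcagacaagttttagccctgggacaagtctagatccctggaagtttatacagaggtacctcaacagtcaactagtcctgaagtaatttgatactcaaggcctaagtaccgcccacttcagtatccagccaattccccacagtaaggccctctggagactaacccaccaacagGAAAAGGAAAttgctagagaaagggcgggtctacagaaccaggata
Bst2, chr8:71537473-71537722, minus strand: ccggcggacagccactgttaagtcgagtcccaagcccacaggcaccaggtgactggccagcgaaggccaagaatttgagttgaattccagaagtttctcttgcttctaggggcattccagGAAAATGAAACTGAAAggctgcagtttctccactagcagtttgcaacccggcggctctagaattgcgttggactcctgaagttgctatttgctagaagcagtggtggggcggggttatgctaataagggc
Isg15, chr4:156200819-156201068, minus strand: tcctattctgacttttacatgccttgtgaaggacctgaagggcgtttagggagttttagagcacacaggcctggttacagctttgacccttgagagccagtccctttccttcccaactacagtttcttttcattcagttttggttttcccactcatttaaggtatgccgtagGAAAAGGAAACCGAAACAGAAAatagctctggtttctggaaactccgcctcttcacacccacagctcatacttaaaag
Igtp, chr11:58199306-58199555, plus strand: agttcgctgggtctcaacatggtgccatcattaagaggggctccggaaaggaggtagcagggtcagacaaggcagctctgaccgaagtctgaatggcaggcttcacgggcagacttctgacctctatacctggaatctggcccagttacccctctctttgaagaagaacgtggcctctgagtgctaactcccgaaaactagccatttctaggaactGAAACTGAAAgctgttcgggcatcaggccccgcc
Ifit3, chr19:34583279-34583528, plus strand: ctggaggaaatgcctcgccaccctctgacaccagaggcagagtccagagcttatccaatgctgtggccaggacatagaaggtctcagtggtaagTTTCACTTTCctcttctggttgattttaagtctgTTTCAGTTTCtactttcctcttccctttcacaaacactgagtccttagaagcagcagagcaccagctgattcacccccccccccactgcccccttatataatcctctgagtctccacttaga

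In Isg15 the capitals span 3 overlapping matches, which begin 78, 72 and 66 bases before the start. Bst2 has 2 overlapping matches, from 130 and 124 bases before it, and Ifit3 has 2 separate ones, from 156 and 122 bases before it, both on the other strand. Ifitm3, the most abundant gene of the set, also has 2 matches, but both lie after its RefSeq start. The shorter stretches below, each a match with 10 bases on either side, show that the letters recur in the orientation of Ifit3 in Ifit1 and in the 3 guanylate-binding protein genes, and in the opposite orientation in Irgm1.
Ifit1: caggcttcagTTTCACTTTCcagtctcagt
Ifit1: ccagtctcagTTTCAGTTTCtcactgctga
Gbp2: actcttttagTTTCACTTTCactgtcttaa
Gbp3: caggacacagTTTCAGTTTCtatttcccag
Gbp7: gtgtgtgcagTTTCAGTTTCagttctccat
Irgm1: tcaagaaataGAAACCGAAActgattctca

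With a C required after the last A, the motif stood in 10 genes of the set, in 0.819% of all promoters and in 0.944% of all genes. The core of the gamma-activated sequence, TTCNNNGAA, reads the same on both strands. It stood in 9 of 32 genes, including the receptors Ifnar1 and Ifnar2 and the transcription factor gene Irf1. Its share was 8.30% of all promoters and 9.55% of all genes. Bst2, Gbp7, Ifitm3 and Igtp held both. In Bst2 the last bases of the gamma-activated sequence core overlap the first of the response element. Induced genes with a match of the response element had a median level of 270.0 TPM (19.7 to 5077 TPM, 13 genes past the filter on low counts). Those without one had 35.6 TPM (4.71 to 232.7 TPM, 14 genes). The 7 without a promoter window, whose match is unknown, had 14.2 TPM (3.76 to 76.9 TPM) and could change this contrast. The filter left out Oas3, which has a match and stood at 0.245 TPM, so the lower end of the first range depends on the filter. Past the filter, genes with and without a match were mostly higher in library 2 than in library 3, in 11 of 13 and 12 of 14 genes. A match is a description of letters, and binding was not measured.

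**Figure D1:**
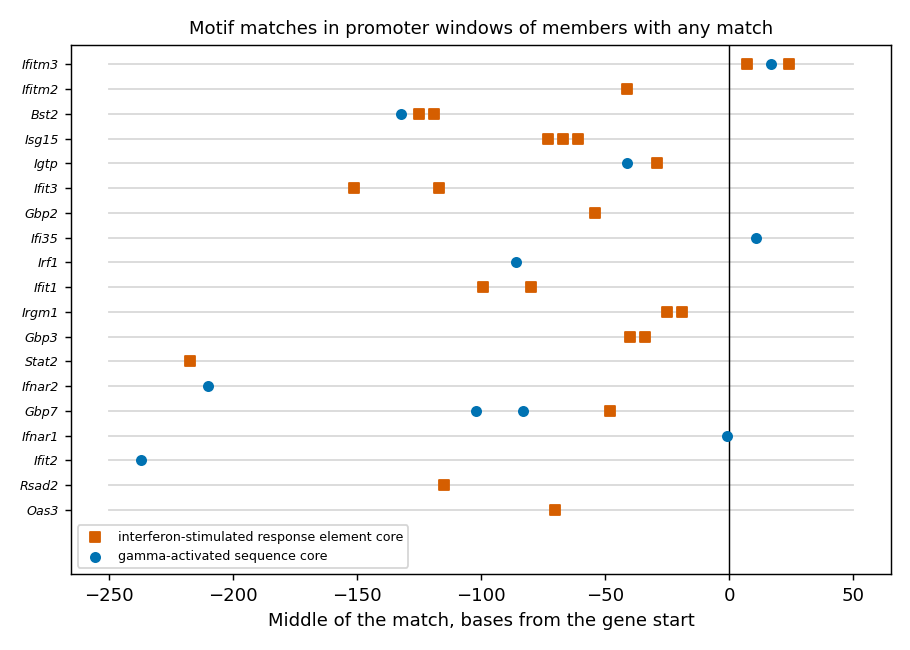
Positions of motif matches in promoter windows, in bases from the RefSeq gene start (x axis), for the genes of the set with any match, ordered by mean TPM from the top. Squares are the response element core and circles the gamma-activated sequence core; 20 of the 22 squares lie before the start, and the other 2 belong to Ifitm3.

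The ligands were at the limit of detection. Of 21 interferon genes, which comprise the alpha interferons, Ifnab, Ifnb1, Ifne, Ifnk, Ifnz, Ifng and the lambda interferons Ifnl2 and Ifnl3, 18 had no count in any library. Ifna13 had 3, 0 and 3 counts in libraries 1, 2 and 3, Ifnab had 8, 6 and 6, and Ifnb1 had 0, 0 and 8. No ligand reached 10 counts in a library. Alpha interferon genes are near-identical copies, and reads that aligned to more than 1 place were left out of the gene counts in the table, so their levels are uncertain. The gene for interferon gamma, Ifng, which T and NK cells make, was among those with no count.

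All 4 receptor chains were present in every library. Ifngr1, the ligand-binding chain for interferon gamma, was at 108.7, 128.2 and 145.4 CPM in libraries 1, 2 and 3. Ifnar1 was at 54.4, 66.4 and 84.2 CPM, Ifnar2 at 44.5, 45.0 and 46.2 CPM, and Ifngr2 at 15.7, 14.8 and 18.9 CPM. Library 3 was thus highest in CPM for 4 of 4 receptors (27.6% of all genes tested were highest there). Ifnar2 was nearly even, and in TPM it was highest in library 2, at 36.5, 45.6 and 43.8 TPM in libraries 1, 2 and 3. Per length the order was Ifngr1 at 139.1 ± 30.4 TPM, Ifnar2 at 42.0 ± 4.79, Ifnar1 at 35.8 ± 9.98 and Ifngr2 at 13.5 ± 2.24 TPM (SD, n = 3), of which Ifnar2 and Ifnar1 did not differ beyond their spread. The genes for Ifnar2, Ifnar1 and Ifngr2 lie near each other on chromosome 16, from 91372783 to 91565623, with Il10rb between Ifnar2 and Ifnar1, and Ifngr1 on chromosome 10, from 19591949 to 19610229. The range of Ifnar2 over libraries, 0.054 on the log2 scale, was the narrowest of the 39 genes. None of the 4 was called variable.

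The kinases next to the receptors were also present. Jak1, used by both receptors, stood at 58.1 ± 16.9 TPM, Jak2, which serves the gamma receptor, at 13.0 ± 5.97, and Tyk2, which serves IFNAR1, at 10.1 ± 1.68 TPM (SD, n = 3). Jak1 was at 103.3, 152.8 and 146.6 CPM in libraries 1, 2 and 3, and was lowest in library 1. Il10rb, a chain shared by the lambda interferon receptor, was at 18.8, 26.7 and 34.7 CPM, while its partner Ifnlr1 had 3 to 6 counts per library.

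The 4 transcription factors of the set were all lowest in library 3. Irf1, a factor induced by interferon gamma, was at 277.6, 212.0 and 181.9 CPM in libraries 1, 2 and 3. Irf9, the DNA-binding part of the type I complex, was at 132.7, 121.0 and 94.5 CPM, and its partner Stat2 at 88.9, 97.4 and 64.9 CPM. Irf7, which amplifies type I interferon production, was at 92.3, 78.5 and 39.6 CPM, and had the widest spread of the 4, 1.20 in log2 from lowest to highest (edgeR goodness of fit, adjusted p = 0.99). Corrected for GC content and length, Irf7 was highest in library 2 (80.6, 86.2 and 41.3 CPM), and library 3 was still lowest for all 4. None of the 4 passed the test. Beside Irf1, the 6 immediate early genes, which dissociation of tissue can induce, summed to 6366, 4171 and 3862 CPM, Fos, Nr4a1 and Egr1 leading, also highest in library 1; their part in the values of Irf1 was not tested.

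IFIT proteins bind foreign RNA and block its translation, and their genes were highest in library 2. Ifit1 was at 119.9, 209.4 and 73.1 CPM in libraries 1, 2 and 3, and Ifit3 at 172.9, 211.4 and 99.7 CPM. Library 3 was lowest for both. Ifit2 was at 15.7, 37.5 and 28.0 CPM and was lowest in library 1. Ifit1 had an unadjusted p of 0.0499, which did not hold after adjustment over all genes (edgeR, adjusted p = 0.71). The 3 genes lie within chromosome 19, 34550694 to 34650009, yet their mean levels per length spanned 13.1 times, from 21.9 ± 10.7 TPM for Ifit2 to 286.4 ± 114.8 TPM for Ifit3 (SD, n = 3).

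The oligoadenylate synthetase family, whose enzymes sense double-stranded RNA, was uneven. Oasl2 led at 198.5, 215.8 and 112.1 CPM in libraries 1, 2 and 3, lowest in library 3. Its neighbour Oasl1 was at 33.1, 15.6 and 10.8 CPM, highest in library 1. Oas2 was at 3.28, 6.35 and 6.29 CPM. Oas3 had 6, 17 and 20 counts and was the 1 gene of the set that did not pass the filter on low counts. Oas2 and Oas3 lie beside each other on chromosome 5, from 120730333 to 120777661, and stood at 3.76 ± 1.52 and 0.245 ± 0.12 TPM (SD, n = 3), the lowest of the 39 genes. Of the related genes on the wider list described below, Oas1a, Oas1b and Oas1g had means of 14.1, 9.67 and 1.94 TPM; these are similar copies, so the split of reads between them is uncertain.

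Interferon-inducible GTPases, which act on the vacuoles and replication sites of intracellular pathogens, were among the more abundant members. Igtp stood at 292.7 ± 86.0 TPM, Gbp2 at 269.9 ± 43.1 and Irgm1 at 144.6 ± 50.2 TPM (SD, n = 3). Irgm1, a regulator of the other immunity-related GTPases, was at 269.2, 347.1 and 195.0 CPM in libraries 1, 2 and 3, and Igtp at 244.5, 212.1 and 124.5 CPM. Both were lowest in library 3. Gbp2, the guanylate-binding protein gene nearest to even, was at 211.3, 235.3 and 211.5 CPM, which differ by at most 0.15 in log2. Its neighbours on chromosome 3 (142530342 to 142638008) were lowest in library 3: Gbp3 was at 59.2, 81.5 and 44.0 CPM and Gbp7 at 61.6, 87.4 and 53.3 CPM. The myxovirus resistance genes were lower. Mx1 was at 17.7, 22.7 and 11.5 CPM and Mx2 at 16.5, 17.5 and 6.67 CPM, both lowest in library 3. Many inbred strains carry a defective Mx1, and Mx2 is annotated as a polymorphic pseudogene in the gene models used. All 7 genes of this class were higher in library 2 than in library 3. As measured, 6 of the 7 were highest in library 2, but corrected for GC content and length only Mx1, Mx2 and Gbp3 were; Gbp7 was then at 89.8, 68.8 and 46.4 CPM and Irgm1 at 323.4, 308.8 and 182.5 CPM. Exons of Igtp share 162 bases with Irgm2 on the same strand, so reads there could be split or lost between them.

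Membrane-bound restriction factors held the most abundant transcripts. Ifitm3 stood at 5077 ± 2024 TPM, Ifitm2 at 4014 ± 1725 and Bst2 at 521.4 ± 204.0 TPM (SD, n = 3), ranks 1, 2 and 3 of the set, and Ifitm3 lay at percentile 99.9 of all genes tested. IFITM proteins block fusion of viruses with the cell, and BST2 (tetherin) holds budding virus at the surface. Ifitm3 was at 1839, 791.1 and 834.7 CPM in libraries 1, 2 and 3 and Ifitm2 at 1425, 511.4 and 718.9 CPM. Library 1 was above both others for each, and libraries 2 and 3 were close for Ifitm3. Bst2 was at 237.2, 143.6 and 88.9 CPM, with the libraries in the order 1, 2 and 3. Corrected for GC content and length, the gap of library 1 narrowed, to 1088, 648 and 743.7 CPM for Ifitm2, 1475, 965.3 and 853 CPM for Ifitm3, and 184.8, 178.5 and 91.8 CPM for Bst2. Ifitm1, 107 times lower than Ifitm3 per length, was at 19.1, 9.34 and 22.7 CPM and was the only induced gene past the filter that was highest in library 3. The 3 Ifitm genes are similar copies on chromosome 7, between 140954837 and 141010770, so the split of reads between them is uncertain. Unadjusted p was 0.053 for Ifitm2 and 0.086 for Ifitm3, and neither was called (edgeR, adjusted p = 0.73 and 0.85).

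ISG15 is a ubiquitin-like protein that is attached to other proteins, and USP18 removes it and also dampens IFNAR signalling. Isg15 was at 193.5, 87.2 and 58.5 CPM in libraries 1, 2 and 3. Its spread from lowest to highest, 1.71 in log2, was the widest after Samd9l. Its unadjusted p of 0.016 did not hold after adjustment (edgeR, adjusted p = 0.44). Usp18 was at 88.3, 84.1 and 37.7 CPM, with libraries 1 and 2 close and library 3 lower. Herc6, the ligase that attaches ISG15 in mice, was at 9.65, 24.1 and 17.0 CPM, lowest in library 1. Parp9 and Dtx3l encode partners in a complex that modifies histones and PARP14 is an ADP-ribosyltransferase. Parp9 was at 54.4, 62.4 and 52.0 CPM, Dtx3l at 45.4, 56.5 and 41.0 CPM and Parp14 at 20.9, 38.7 and 22.1 CPM. All 3 were highest in library 2 as measured, but corrected for GC content and length Parp9 (59.5, 59.1 and 50.2 CPM) and Dtx3l (53.9, 50.7 and 38.6 CPM) were highest in library 1, and Herc6 was lowest in library 3 (16.2, 16.9 and 14.5 CPM). Parp9 and Dtx3l lie head to head on opposite strands of chromosome 16 and share 458 bases of exon, where reads cannot be assigned without the strand, which is not stated for the counting.

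RSAD2 (viperin) and CMPK2 are neighbouring genes of antiviral nucleotide metabolism on chromosome 12, between 26442746 and 26479837. Rsad2 was at 19.5, 38.8 and 22.9 CPM and Cmpk2 at 6.47, 7.56 and 5.59 CPM in libraries 1, 2 and 3, both highest in library 2, though Cmpk2 was highest in library 1 when corrected for GC content and length (7.60, 6.84 and 5.26 CPM). Ifi35 was at 201.3, 100 and 100.9 CPM and Xaf1, a gene linked to cell death, at 47.6, 31.9 and 28.4 CPM, both highest in library 1. Zbp1, a sensor of left-handed nucleic acid, was at 26.7, 20.7 and 13.8 CPM. Ifi44 was at 3.79, 12.5 and 10.8 CPM and was lowest in library 1. The levels of these genes per length ran from 4.71 ± 2.70 TPM for Ifi44 to 232.7 ± 74.6 TPM for Ifi35 (SD, n = 3).

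**Figure D2:**
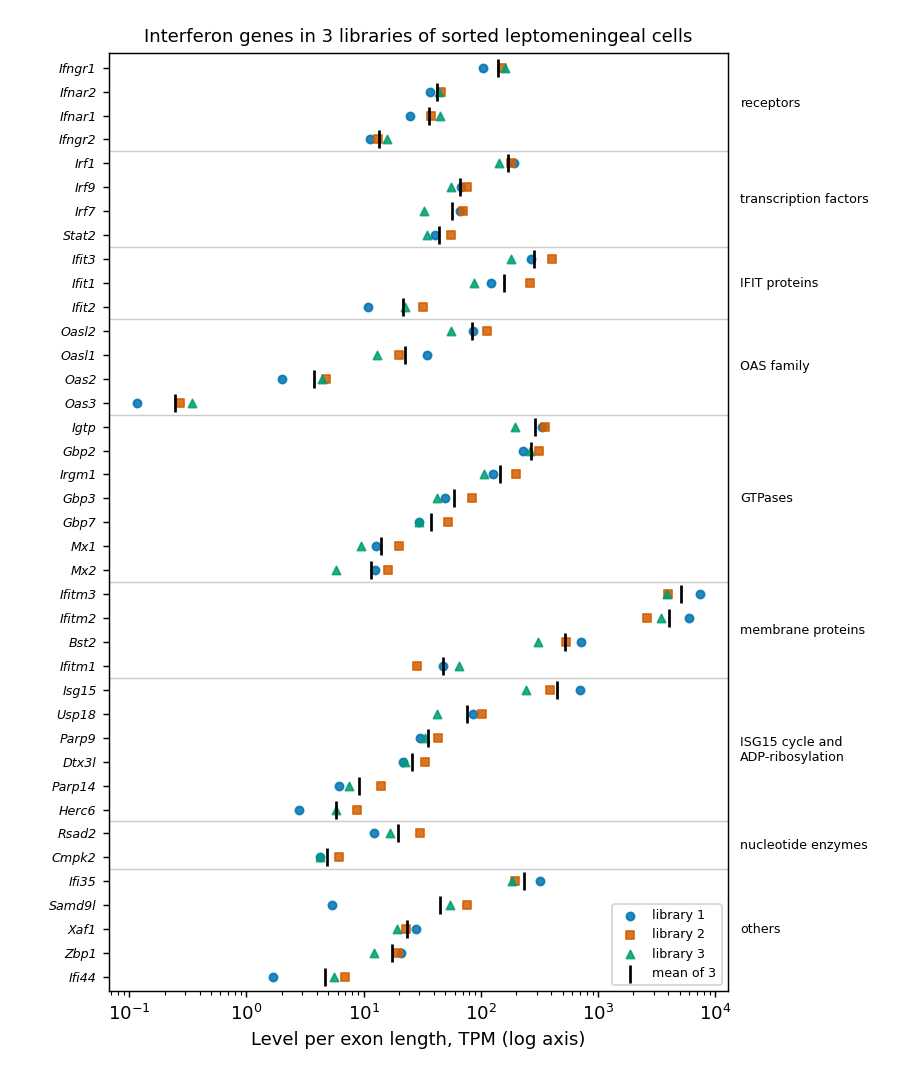
Level of each of the 39 genes in TPM (log axis) in the 3 libraries, grouped by role, with the mean as a bar. Ifitm3 and Ifitm2 lie above 1000 TPM, 12 genes have a mean of at least 100 TPM, and Oas3 is lowest at 0.245 TPM.

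Samd9l was the 1 gene of the 38 tested that was called variable between libraries, where 0.437% of the 14409 genes were called (edgeR goodness of fit with Benjamini-Hochberg adjustment). SAMD9L restrains growth and translation in infected cells. It was at 10.7, 123.1 and 93.1 CPM in libraries 1, 2 and 3, so that library 1 stood apart and libraries 2 and 3 were close. The difference of library 1 from the mean of the others was -3.21 on the log2 scale. The test asks whether the 3 libraries vary more than is typical for genes of similar level. It gave an adjusted p of 0.0020 (edgeR). Without library 1 the call was lost (edgeR, adjusted p = 0.9996). The gene lies on chromosome 6, from 3372257 to 3399572, and its longest transcript has a GC content of 38.8%, the lowest of the 39. Genes of low GC content were lower in library 1 in general, with a median difference of -0.83 over the 2875 genes of lowest GC content. When each library was corrected for its trends with GC content and exon length, the levels of Samd9l became 18.1, 88.3 and 76.6 CPM, and it was still called (edgeR, adjusted p = 0.0095). The summed macrophage, B cell and choroid plexus markers given above were lowest in library 1 as well, and their part in the value of Samd9l was not tested.

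Only 3 of the 38 genes tested, Samd9l, Isg15 and Ifit1, had an unadjusted p under 0.05, and 7.04% of all genes did, a share near that of the set. The common biological coefficient of variation over all genes was 0.372. The median range over libraries was 0.96 on the log2 scale for the induced genes, 0.38 for the receptors and 0.67 for all genes tested.

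Most induced genes took the same direction between libraries 2 and 3. Of the 34 induced genes past the filter, 30 were higher in library 2 than in library 3, where 50.5% of all genes tested were. Of the 34, 22 were lowest in library 3, where 27.2% of all genes were. Between libraries 1 and 3, 25 of the 34 were higher in library 1 (49.1% of all genes), while 8 were lowest in library 1 (40.4%) and 4 in library 2 (32.3%). The median difference of library 2 from library 3 was 0.52 on the log2 scale over the induced genes, -0.26 over the 4 receptors and 0.0048 over all genes tested. The 4 induced genes that were not higher in library 2 were Ifitm1, Ifitm2, Ifitm3 and Ifi35. These are counts over genes that share libraries and a signalling pathway, so they have no test of their own.

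**Figure D3:**
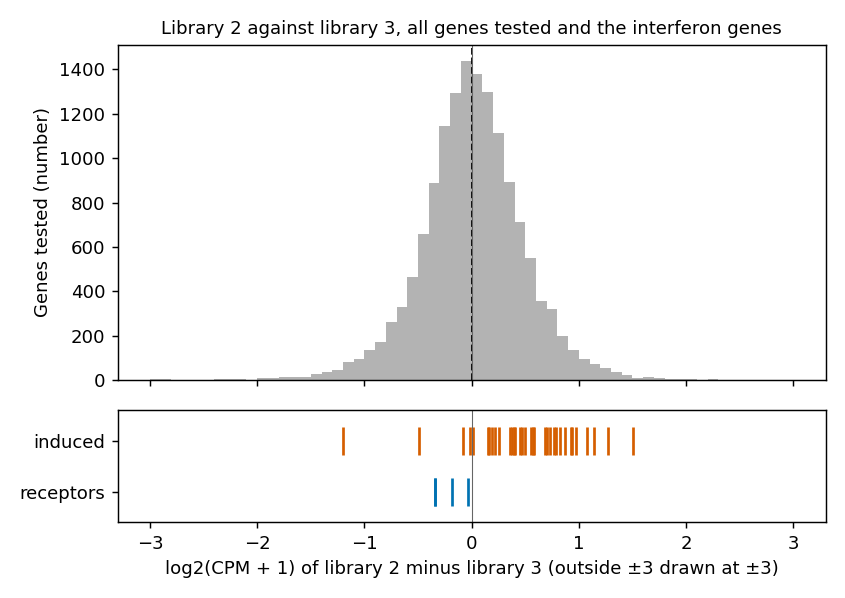
Difference of log2(CPM + 1) between library 2 and library 3, as a histogram of the 14409 genes tested (top, number of genes) and as 1 tick per induced gene or receptor (bottom). Of the 34 induced genes, 30 lie right of 0, and all 4 receptors lie left of it.

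Library 2 was highest for 20 of the 34 induced genes (32.8% of all genes), among them the 3 IFIT genes, and library 1 for 13 (39.6% of all genes), among them Irf1, Irf9, Isg15, Bst2, Ifitm2 and Ifitm3. Corrected for the trends of each library with GC content and exon length, the counts turned to 16 in library 2 (29.6% of all genes) and 17 in library 1 (40.2%), and the highest library became another one for 8 genes, Irf7, Gbp2, Gbp7, Irgm1, Usp18, Parp9, Dtx3l and Cmpk2. For those 8 genes the highest library depended on the correction, and for the other induced genes past the filter it stayed the same. Of the 12 induced genes with up to 3000 bases of exon, 8 were highest in library 1, and of the 22 longer ones 17 were highest in library 2. The shorter ones were also richer in GC, with a median of 51.4% beside 46.8%, so length and base composition cannot be told apart here. Over all genes tested, 2398 of the 4457 shorter genes and 3286 of the 9918 longer ones were highest in library 1, and 3869 of the longer ones were highest in library 2. The median difference of library 1 from the others was -1.002 over the 6 induced genes among the 2875 genes of lowest GC content, and 1.002 over the 2 among those of highest, where all genes had 0.38. The comparison of library 2 with library 3 went the same way in both length classes, with a median difference over induced genes of 0.53 for the shorter and 0.51 for the longer. Corrected for both trends, 32 of the 34 were higher in library 2 than in library 3 and 28 were lowest in library 3 (49.9% and 32.6% of all genes).

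**Figure D4:**
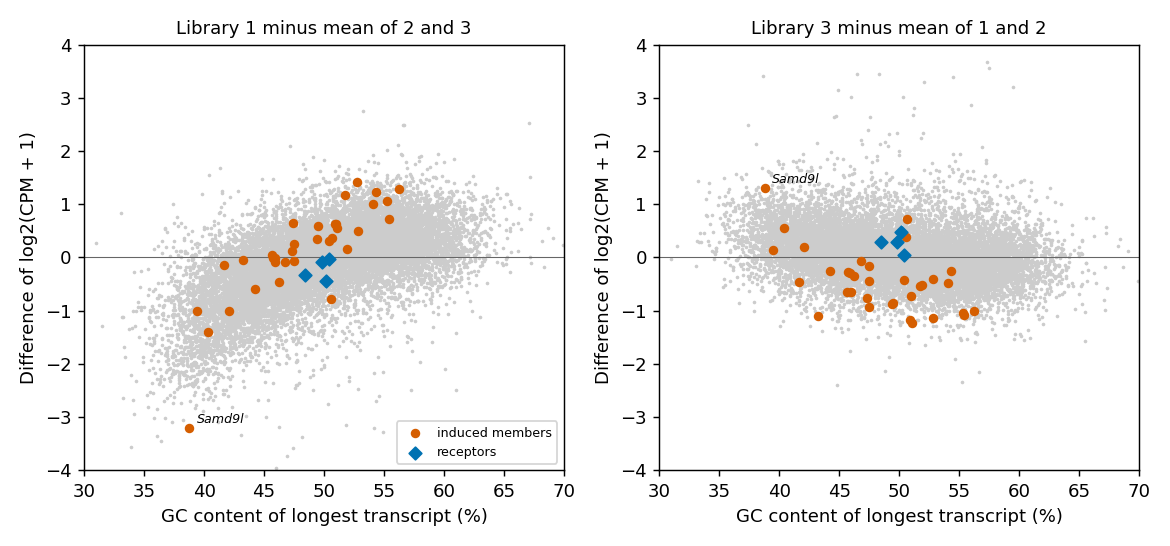
Difference of log2(CPM + 1) of library 1 from libraries 2 and 3 (left) and of library 3 from libraries 1 and 2 (right) against the GC content of the longest transcript, with all genes tested in grey. On the left the induced genes and the grey cloud both rise with GC content, the induced genes more steeply. Among the 2875 genes of lowest GC content the medians were -1.002 for 6 induced genes and -0.83 for all genes. Among the 2875 of highest they were 1.002 for 2 induced genes and 0.38 for all genes. Samd9l lies at -3.21 on the left. On the right most induced genes lie below 0 and the 4 receptors above it.

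Markers of macrophages and microglia and of mural cells did not share the order of the induced genes in libraries 2 and 3. The summed macrophage and microglia markers were at 290.1 and 807 CPM in libraries 2 and 3, and the 5 mural cell markers 2222 and 4381 CPM, both higher in library 3, where the induced genes were mostly lower. Fibroblast markers did share it between libraries 2 and 3. All 6 fibroblast markers were higher in library 2, with a median difference of 0.19 on the log2 scale, as were 5 of the 6 leptomeningeal fibroblast markers, with a median of 0.32, beside 0.52 for the induced genes. The exception, Ptgds, at 239.5 and 517.7 CPM in libraries 2 and 3, turned the leptomeningeal sum (1686 and 1730 CPM). The endothelial markers summed to 65.4 and 80.8 CPM in libraries 2 and 3. Of all genes tested, 50.5% were higher in library 2 than in library 3. Library 1 was lowest for 4 of the 6 fibroblast markers and 3 of the 6 leptomeningeal ones, but for 8 of the 34 induced genes. The part of these cell types in the values of the induced genes was not tested.

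**Figure D5:**
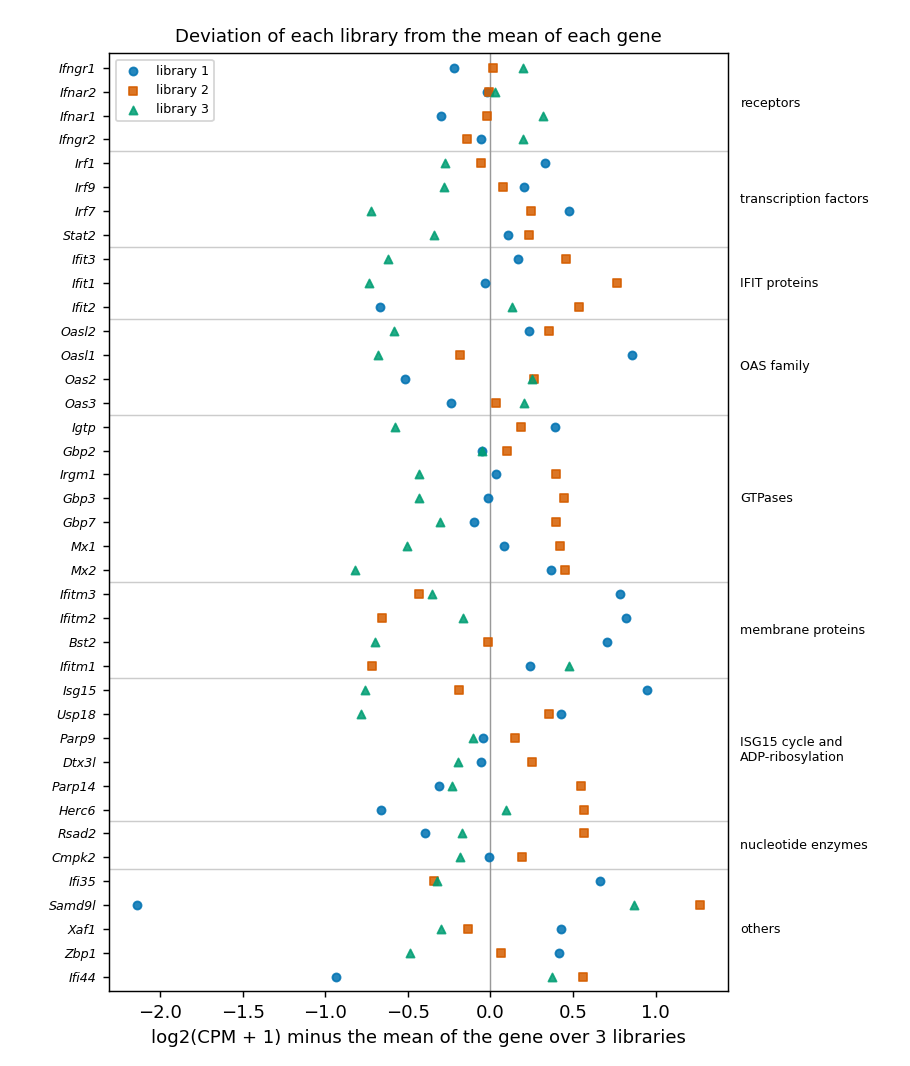
Deviation of each library from the mean of the gene, in log2(CPM + 1), for the 39 genes by role. Green triangles (library 3) lie at the left for 22 of the 34 induced genes past the filter, and at the right for the 4 receptors.

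Position was shared by many of the genes. Within 200000 bases of another of the set lay 23 of the 39, in 9 groups, all of them gene families or neighbours named above. Levels within a group differed by 1.23 times for Mx1 and Mx2, 4.05 times for Rsad2 and Cmpk2, 7.20 times for the 3 Gbp genes and 15.4 times for Oas2 and Oas3, in TPM. The exons of Irf9 overlap those of Rnf31 on the same strand, which bears on how its reads were assigned.

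A wider list of 85 symbols of the pathway, on 86 gene rows since Gbp6 stood on a pair of identifiers, had 59 rows past the filter, and 0 were called variable (edgeR, adjusted p under 0.05), beside 0.437% of all genes. An unadjusted p under 0.05 was found for 7, beside 7.04% of all genes. Those 7 were Iigp1, Ddx60, Ifi204, Isg20, Psmb9, Uba7 and Gbp6. The nearest to the threshold, the immunity-related GTPase gene Iigp1, was at 16.9, 108.3 and 45.0 CPM in libraries 1, 2 and 3 (edgeR, adjusted p = 0.079). Of the 45 other induced genes tested, 35 were higher in library 2 than in library 3, where 50.5% of all genes tested were. Lowest in library 3 were 18 of the 45 (27.2% of all genes), beside 22 of the 34 in the set. The 6 most abundant per length were Ifi27 (938.5 ± 276.5 TPM), Lgals3bp (776.0 ± 288.3), Lgals9 (276.9 ± 62.4), Ube2l6 (225.9 ± 48.6), Ifi47 (175.2 ± 27.0) and Ifi27l2a (166.0 ± 53.7 TPM; SD, n = 3). Lgals3bp was at 1012, 770.5 and 401.4 CPM in libraries 1, 2 and 3. Ube2l6, the enzyme that conjugates ISG15, was at 181.0, 153.8 and 107.7 CPM. Both were lowest in library 3, as were Lgals9 (139.4 CPM there) and Ifi47 (122.2 CPM there). Ifi27, at 674.5, 350.3 and 350.8 CPM, and Ifi27l2a, at 38.2, 16.7 and 22.1 CPM, were lowest in library 2.

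Inhibitors of the pathway were present as well. Socs3 stood at 145.2 ± 26.6 TPM and Socs1, the suppressor most specific to interferon signalling, at 3.03 ± 1.29 TPM (SD, n = 3). Socs1 was at 4.35, 2.96 and 1.47 CPM and Socs3 at 182.6, 123.1 and 109.5 CPM in libraries 1, 2 and 3, both lowest in library 3. The phosphatase genes Ptpn1 and Ptpn2 were at 25.7 ± 7.25 and 52.5 ± 17.1 TPM and Pias1 at 54.5 ± 8.01 TPM. Ptpn1 was highest in library 3, at 54.1, 29.6 and 56.9 CPM in libraries 1, 2 and 3. Ptpn2 was lowest in library 1, at 38.6, 62.3 and 56.1 CPM. Pias1 was lowest in library 3, at 121.3, 128.9 and 111.3 CPM. Of the other interferon regulatory factors, Irf3 was at 77.6 ± 7.11 TPM, Irf2 at 15.4 ± 1.30, Irf5 at 15.1 ± 4.68 and Irf8, a factor of myeloid cells, at 2.63 ± 0.91 TPM (SD, n = 3). Irf5 and Irf8 were highest in library 3, at 18.9 and 8.21 CPM, unlike most induced genes.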

How the data were processed

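The authors deposited whole-number counts per gene in 3 libraries; HTSeq 0.5.3, DESeq2 1.22.1 and the mm10 build (GRCm38) are named, with no role, per the submitters' processing notes. The aligner, the annotation release and the strand setting are not given in the sources used here. Rows for reads that were unaligned, ambiguous, aligned to more than 1 place or in no gene (39.1% to 45.6% of the totals) were left out. Positions, exon lengths and GC content came from GENCODE M21, which held 46488 of 46983 gene identifiers (98.9%), and promoters from RefSeq on GRCm38.p6.

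Counts were scaled by TMM and filtered by filterByExpr (minimum count 10) in edgeR 4.0.16 under R 4.3.3, which left 14409 genes. With 1 group there is no contrast for the quasi-likelihood test. Genes variable between libraries were therefore called from an intercept-only fit: its deviance, at the trended dispersion, was compared with a chi-square (2 degrees of freedom), and p-values were adjusted by Benjamini-Hochberg over all genes, with a threshold of 0.05; the script was tested on simulated data. Alternatives used other size factors, no filter, other dispersions (one from DESeq2 1.42.0), trend removal and each library left out. Every gene of the set was named, with those of the wider list that are ligands, receptors, kinases, inhibitors, interferon regulatory factors, or the 6 most abundant other induced genes; 1 gene that this rule names is not reported here. The genes and lists were chosen with earlier results of these data known. The count of genes higher in library 2 than in library 3 was chosen after the values were seen. So were the counts by highest library under other settings. The median difference of library 2 from library 3 and the count of genes lowest in library 3 were not planned either.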

Additional observations from a re-analysis of the deposited data

How the results depend on the processing

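No paired analysis was possible because there is only 1 group. The call of 1 gene of the set, Samd9l, held under 8 of the 9 alternatives (edgeR, adjusted p from 0.0011 to 0.035) and was lost without library 1 (adjusted p = 0.9996), so the count ranged from 0 to 1 when each library was left out. For the other 37 genes tested, no alternative changed a call. The count over all genes (63) was 134 of 25083 genes without the filter, which tests more genes, 96 with the GC content and length trends removed, where the cause was not tested, and 12 to 28 with a library left out, which had fewer samples.

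The median difference of library 3 from libraries 1 and 2 over the induced genes (-0.47) was between -0.53 and -0.41 under every alternative run. That of library 1 from libraries 2 and 3 (0.20) was not stable. With library 3 left out it was -0.15 and with library 2 left out 0.53, and it was -0.048 on the TPM scale, where the median of all genes was itself -0.21; with plain totals that median was -0.11 and the induced genes lay at 0.077. The counts of induced genes higher in library 2 than in library 3 (30 to 32) and lowest in library 3 (22 to 30) kept their direction under each alternative run; the latter counts pairs when a library is left out. Those highest in library 1 (13) and in library 2 (20) were 17 and 16 with the GC content and length trends removed, 11 and 22 with plain totals and 9 and 24 on the TPM scale, so which of these libraries leads is not stable. The motif count was 13 to 14 by window and 10 for the longer motif. Oas3 and the ligands had too few counts for the test.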
